A study of Rattus norvegicus with 100 samples.

Results

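Gonadotrophs are the cells of the anterior pituitary that make luteinizing hormone and follicle-stimulating hormone, and 5 of their genes are described here in rats given ethinylestradiol (EE), a synthetic estrogen. The genes are Gnrhr, Fshb, Lhb, Cga and Gata2. They were taken by name, with earlier results of these data known. Every probe set assigned to each was used, which gave 7 probe sets of 15866 on the array (5 of 10411 genes that have a probe set of their own). Gnrhr and Fshb each have 2 probe sets and the other genes 1. All 7 had a value on all 30 pituitary arrays.

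The animals were immature female rats in a uterotrophic assay, a test in which estrogens are recognised by the growth of the immature uterus. Pituitary RNA was measured at 4, 8, 24, 48 and 72 h, with 3 EE arrays and 3 control arrays at each time, and uterus RNA at 2, 4, 8, 24, 28, 48 and 72 h, with 5 and 5. At each time EE arrays were set against the controls of that time. The labels do not state strain, age in days, dose, route, dosing schedule or what controls received, nor whether an array stands for 1 animal, so the p-values below reflect only the spread between these arrays.

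Gonadotropin-releasing hormone from the hypothalamus reaches the gonadotroph in pulses and binds the receptor encoded by Gnrhr, which signals through Gq proteins, protein kinase C and mitogen-activated protein kinases. Each gonadotropin pairs a common alpha subunit, encoded by Cga, with its own beta subunit, encoded by Lhb or Fshb. Cga is also made in thyrotrophs, where it pairs with the product of Tshb to form thyrotropin. Gata2 encodes a zinc-finger transcription factor known in gonadotrophs and thyrotrophs, and in many other tissues. Estrogens act on this axis at the hypothalamus and at the pituitary, and in most settings hold gonadotropin output down.

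Upstream sequences of the receptor gene, a beta subunit gene and the alpha subunit gene are shown because the 3 genes are active in the same cell type and behaved differently below. Each is the 250 bases before a start site listed by RefSeq on GRCr8, plus strand. The Gnrhr sequence lies at chr14:22211416-22211665, the Lhb sequence at chr1:105037207-105037456 and the Cga sequence at chr5:54283090-54283339. The Cga window precedes a start that lies inside the gene's annotated span, so most of that window is within the span. Lhb has a further listed start downstream, whose window, chr1:105037414-105037663, is not printed. Capitals mark matches, on either strand, to the binding motifs TGACCTTG (SF-1), CGCCCCC (Egr1), GATTA (Pitx factors) and GATAA (GATA factors).
Gnrhr: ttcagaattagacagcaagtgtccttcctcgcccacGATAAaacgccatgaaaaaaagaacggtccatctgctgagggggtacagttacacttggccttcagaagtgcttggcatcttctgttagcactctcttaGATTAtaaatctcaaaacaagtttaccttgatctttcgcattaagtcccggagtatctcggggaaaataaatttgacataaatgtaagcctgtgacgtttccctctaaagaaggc
Lhb: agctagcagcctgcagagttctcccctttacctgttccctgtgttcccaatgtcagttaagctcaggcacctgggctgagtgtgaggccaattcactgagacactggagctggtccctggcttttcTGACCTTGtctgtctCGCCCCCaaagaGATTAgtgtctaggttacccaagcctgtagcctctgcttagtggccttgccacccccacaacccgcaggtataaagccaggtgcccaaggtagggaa
Cga: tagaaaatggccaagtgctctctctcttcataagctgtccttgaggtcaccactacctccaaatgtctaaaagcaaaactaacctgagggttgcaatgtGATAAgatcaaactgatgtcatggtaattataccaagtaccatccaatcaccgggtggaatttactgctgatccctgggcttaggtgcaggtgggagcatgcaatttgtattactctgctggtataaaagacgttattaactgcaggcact
In the printed Lhb sequence the SF-1, Egr1 and Pitx matches began 124, 109 and 97 bases before the start site, and the window of the downstream start held 0 of each. These letters occur in 1.33%, 13.2% and 20.5% of the 33469 upstream sequences of that length. The Gnrhr sequence held 1 Pitx match, 115 bases before the start, and 1 GATA match, 214 bases before it. The Cga sequence held 1 GATA match, 151 bases before the start used here (GATAA occurs in 23.5% of the upstream sequences). The full estrogen response element, a pair of facing GGTCA half-sites with 3 bases between them, present in 0.0239% of them, was in none of these 3. Its half-site GGTCA, present in 35.4%, matched in the printed Lhb sequence, where it overlaps the SF-1 match, and 206 bases before the Cga start used here, but not in Gnrhr. The AP-1 motif TGANTCA (6.34%) and the cyclic AMP response element TGACGTCA (1.59%) matched in none of the 3. These matches are letters only and show no binding.

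Intensities are linear values as deposited. A change is the log2 difference, EE minus control, of intensity plus 30.4, given ± its standard error with 3 arrays per group. The spread behind that error was pooled over all groups of a tissue, 10 in the pituitary, and moderated. It was not taken from the groups compared alone, except where arrays of a time were fitted alone. Folds are on the same scale, which understates the change of dim probe sets. "Rose" and "fell" are used where the limma p-value, adjusted by the Benjamini-Hochberg method over all probe sets tested, was under 0.05. On pituitary arrays the median intensity lay between 103 and 110 and blank cells made up 36.3% to 41.5% of probe sets. No arrays were identical. EE replicate 34 of 8 h had the lowest median correlation with the other pituitary arrays (0.963; the other arrays reached 0.968 to 0.981), the most blanks (41.5%) and the lowest Gapdh 3'-to-5' log2 difference (-0.379). Without it 75 probe sets passed at 8 h in place of 297. Of the 2 calls at 8 h given below, that of Gata2 was then at -0.53 (limma adjusted p = 0.0428) and that of Gnrhr was lost (0.59, adjusted p = 0.255). Over the 5 times the same number, 5 of 7, passed without it. The number of arrays limits the precision. These are bulk samples, in which fewer gonadotrophs and less RNA per gonadotroph cannot be told apart.

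Averaged over the 5 times, the receptor and both beta subunits fell with EE and the alpha subunit did not pass. The Gnrhr probe sets changed by -0.65 ± 0.08 and -0.70 ± 0.09, the Fshb probe sets by -0.69 ± 0.17 and -0.80 ± 0.19, and Lhb by -0.30 ± 0.07. Cga was at -0.05 ± 0.05 and Gata2 at 0.13 ± 0.05. So 5 of 7 probe sets fell and 0 rose, where 8.2% of the 8768 probe sets tested passed in either direction. The 5 are not independent, since the 2 probe sets of Gnrhr and of Fshb tracked each other (r = 0.966 and 0.998). The genes were also chosen with earlier results of these data known, so the count is a description and not a test. Of all of them, the dimmer Fshb probe set had the lowest value in this comparison. The median over all probe sets tested was -0.00.

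**Figure D1:**
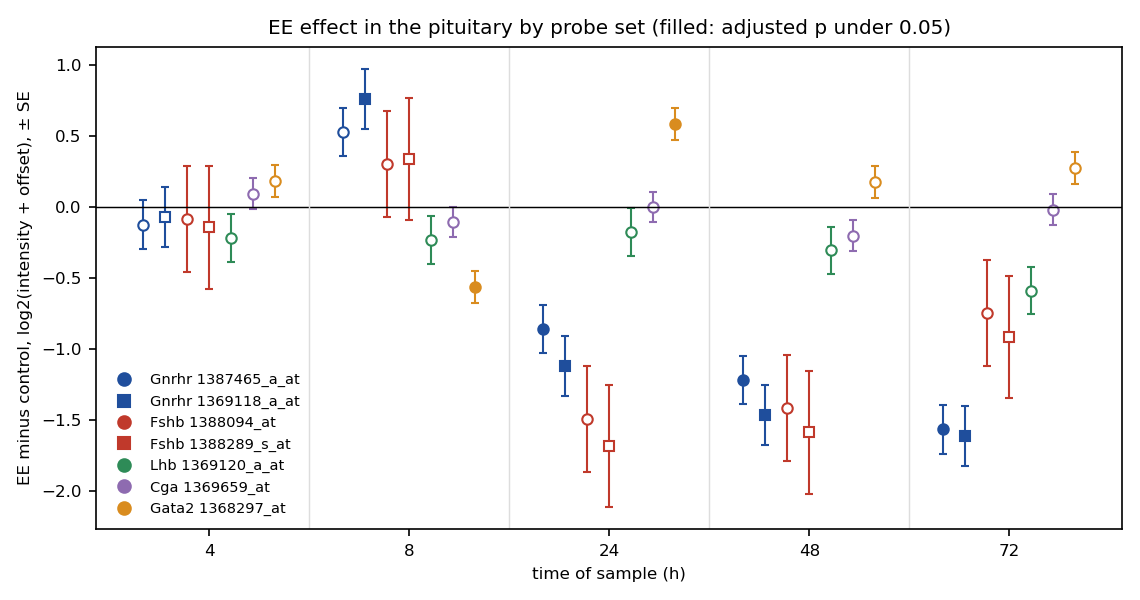
EE minus control on the log2(intensity + offset) scale (vertical axis) against time of sample in hours (horizontal axis), for the 7 probe sets, 3 arrays per group. Points are fitted differences with bars of ± 1 standard error, from a spread pooled over all pituitary groups. Squares are the dimmer probe set of Gnrhr and Fshb, and filled points have an adjusted p under 0.05. From 24 h on all Gnrhr and Fshb points lie below -0.7, Cga stays between -0.20 and 0.10, and Gata2 is below 0 at 8 h and above it at 24 h.

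The calls were spread unevenly over time. At 4 h 0 of 7 probe sets passed in limma (0 also at an unadjusted p under 0.05), against 1.37% of all probe sets tested. At 8 h 2 of 7 passed, 1 up and 1 down, against 3.21%. The 3.21% rests on single arrays, with 75 to 716 probe sets called when 1 of the 6 arrays of 8 h was left out. At 24 h 3 of 7 passed, 1 up and 2 down, against 0.0947%, which is 9 probe sets in the whole table and 0 to 8 with an array left out. At 48 h the 2 Gnrhr probe sets passed, against 0.315% (30 probe sets, 12 to 24 with an array left out), and at 72 h the same 2, against 2.74% (251 probe sets, 117 to 157). The late effect (mean of 24, 48 and 72 h) was then set against the early effect (mean of 4 and 8 h). In that comparison 5 of 7 passed, 1 up and 4 down, against 2.33% of all probe sets. A test of any difference of the EE effect between the 5 times passed for 3 of 7, both Gnrhr probe sets and Gata2, against 1.03%.

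Gnrhr, the receptor gene (chr14:22211666-22229654 on GRCr8), gave the firmest change of the 5 genes. At 72 h the brighter probe set, 1387465_a_at, read 1019, 969 and 939 in controls and 304, 292 and 332 with EE. The groups lay far apart, and the EE mean was 31.7% of the control mean (change -1.57 ± 0.17, 2.96-fold lower, limma adjusted p = 5.12e-06). This was the smallest p of the 9172 probe sets tested at 72 h. At 48 h controls read 888, 831 and 818 and EE arrays 365, 366 and 309 (-1.22 ± 0.17, limma adjusted p = 9.03e-04), again the smallest p of that time. At 24 h controls read 725, 811 and 794 and EE arrays 477, 386 and 385 (-0.86 ± 0.17, limma adjusted p = 0.0388). The EE arrays were thus below every control array at each of the 3 late times. The 24 h call was lost when any 1 of its 6 arrays, control replicates 38, 40 and 42 or EE replicates 43, 44 and 46, was left out (-0.81 to -0.96, adjusted p 0.0698 to 0.224), and with blanks set to the 10th percentile (adjusted p = 0.0994).

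The early times of Gnrhr looked different. At 4 h controls read 513, 799 and 804 and EE arrays 619, 951 and 425, which overlap widely (-0.12 ± 0.17, limma adjusted p = 0.905). At 8 h controls read 495, 428 and 442 and EE arrays 707, 583 and 725, so every EE array was above every control (0.53 ± 0.17, limma adjusted p = 0.0848). The dimmer probe set, 1369118_a_at, read 175, 171 and 195 in controls and 313, 259 and 425 with EE at 8 h, and rose there (0.76 ± 0.21, adjusted p = 0.0459). That call was lost without control replicate 28, 30 or 26 or EE replicate 32 or 34 (0.59 to 0.81, adjusted p 0.0748 to 0.255), with the 6 arrays of 8 h alone (adjusted p = 0.131) and with blanks set to the 10th percentile (adjusted p = 0.0705). The 8 h controls were themselves the lowest control group, and the 8 h EE values lay within the range of the control arrays of the other times.

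Late minus early, the EE effect on Gnrhr differed by -1.42 ± 0.16 and -1.75 ± 0.19 in the 2 probe sets (limma adjusted p = 4.41e-06 for both), and between any times F was 24.3 and 23.03 (adjusted p = 7.18e-05 and 8.33e-05). Across the 30 arrays the 2 probe sets tracked each other with r = 0.966. On the dimmer one the late changes were -1.12 ± 0.21, -1.47 ± 0.21 and -1.61 ± 0.21 at 24, 48 and 72 h, all called, and at 24 h EE arrays read 223, 167 and 155 against 345, 496 and 453. Its 24 h call was lost without control replicate 40 or 42 or EE replicate 43, 44 or 46 (adjusted p 0.0698 to 0.223), with the 6 arrays of 24 h fitted alone (adjusted p = 0.0659) and with blanks set to the 10th percentile (adjusted p = 0.0906).

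The control level of Gnrhr was not flat. Its mean was 705 ± 167 at 4 h, 455 ± 35.1 at 8 h, 777 ± 45.7 at 24 h, 846 ± 37.1 at 48 h and 976 ± 40.4 at 72 h (SD, n = 3), and the control groups differed over time (limma adjusted p = 0.0101 and 0.00211 for the 2 probe sets). The 8 h group lay below all the others. Of the neighbours in level, the 24 h and 48 h groups did not overlap on this brighter probe set (725 to 811 and 818 to 888), but did on the dimmer one (345 to 496 and 473 to 491). Those of 48 h and 72 h did not overlap on either. The 4 h range reached into the 24 h range. In EE groups the means were 665 ± 266, 672 ± 77.3, 416 ± 53.2, 347 ± 32.4 and 309 ± 20.7 in the same order of time. From 8 to 72 h the control mean thus went up and the EE mean down. The EE arrays of 4 h (425 to 951) overlapped those of 24 h (385 to 477). Change over time within the EE groups was not tested. Over the control groups 5 of 7 probe sets passed, the Gnrhr and Fshb pairs and Gata2, where 1.59% of all probe sets did.

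**Figure D2:**
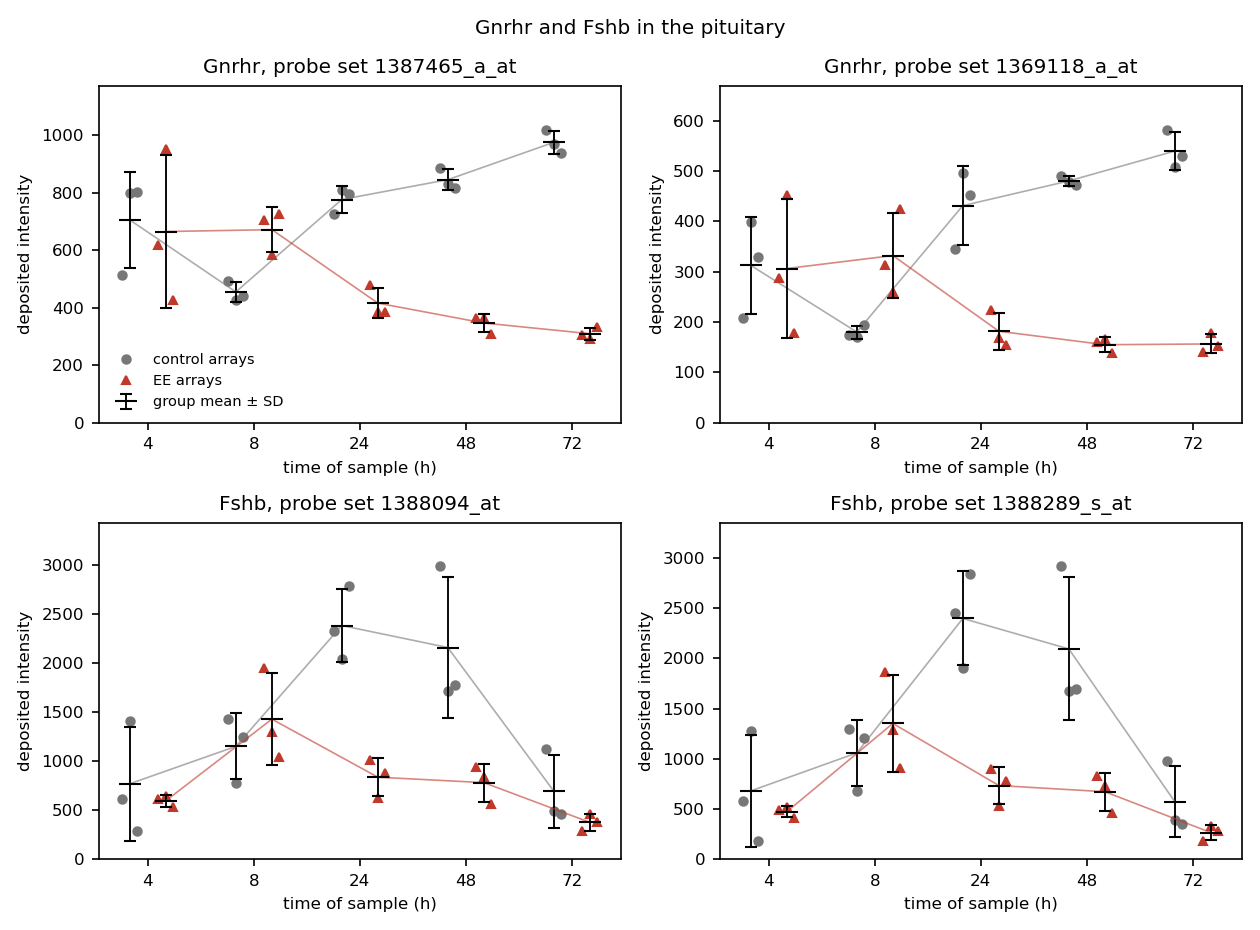
Deposited intensity (vertical axis, linear from 0) against time of sample in hours (horizontal axis, evenly spaced) for both probe sets of Gnrhr (top) and Fshb (bottom) in the pituitary. Grey circles are single control arrays, red triangles single EE arrays, black bars the mean ± SD of 3 arrays and lines join group means. Control Gnrhr climbs from 8 to 72 h. Mean EE Gnrhr falls from 8 to 48 h, and further to 72 h on the brighter probe set only. Control Fshb is highest at 24 and 48 h, where EE arrays stay at or below 1006 on the left panel.

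Fshb, the beta subunit gene of follicle-stimulating hormone (chr3:114003262-114007072 on GRCr8), had larger differences than Gnrhr at 24 h and smaller ones at 72 h, and a standard error above that of the other genes. At 24 h probe set 1388094_at read 2324, 2039 and 2784 in controls and 1006, 627 and 874 with EE (-1.49 ± 0.37, limma adjusted p = 0.174). At 48 h it read 2985, 1712 and 1776 in controls and 936, 839 and 564 with EE (-1.42 ± 0.37, adjusted p = 0.102). Neither time passed, although no EE array reached a control array and the EE mean was 35.1% and 36.1% of the control mean. At 72 h controls read 1124, 490 and 465 and EE arrays 282, 462 and 379 (-0.75 ± 0.37, adjusted p = 0.390). Every EE array was below every control there, on both probe sets. On the first the groups nearly met, at 462 and 465, and control replicate 73 stood apart. With the 6 arrays of a time fitted alone, Fshb passed at 24 h (adjusted p = 0.0300) and at 48 h (adjusted p = 0.0307).

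The early Fshb arrays carried most of the spread. At 4 h controls read 614, 1409 and 282, a 5-fold range, against 609, 647 and 528 with EE (-0.09 ± 0.37, limma adjusted p = 0.971). At 8 h controls read 1426, 774 and 1248 and EE arrays 1951, 1294 and 1037 (0.30 ± 0.37, adjusted p = 0.703). The groups overlapped at both times. The 4 h difference turned to 0.47 without control replicate 17. The second probe set, 1388289_s_at, followed the first with r = 0.998 over 30 arrays, and its changes at the 5 times were -0.14, 0.34, -1.68, -1.59 and -0.92.

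Averaged over the 5 times Fshb fell by both probe sets (limma adjusted p = 0.00909 and 0.00867). Late minus early it differed by -1.33 ± 0.34 (adjusted p = 0.0344) and -1.49 ± 0.39 (adjusted p = 0.0392). The first of these 2 calls was lost without control replicate 16, 18, 30, 42, 61 or 73 or EE replicate 20, 21, 32, 44, 71 or 81, each alone (-1.05 to -1.32, adjusted p 0.0504 to 0.0746). The second was lost without any of the same 12 arrays and without control replicate 26 or 38 (-1.15 to -1.55, adjusted p 0.0508 to 0.0848), and after quantile normalization (-1.43, adjusted p = 0.0557). Both were lost with blanks set to the 10th percentile (adjusted p = 0.0660 and 0.0746). Differences between any times did not pass (F = 4.50, adjusted p = 0.189), and did pass without control replicate 17 (adjusted p = 0.0318). Control levels varied over time (adjusted p = 0.00967), with means of 768 ± 579, 1149 ± 337, 2382 ± 376, 2158 ± 717 and 693 ± 373 (SD, n = 3) from 4 to 72 h. The high 24 h and 48 h controls overlapped each other and lay above all control arrays of the other 3 times.

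Lhb, the beta subunit gene of luteinizing hormone (chr1:105037457-105038446 on GRCr8), fell when averaged over time (-0.30 ± 0.07, 1.23-fold lower, limma adjusted p = 0.0102) and at no single time. The largest difference was at 72 h, where controls read 2559, 2708 and 2824 and EE arrays 1928, 1520 and 1928 (-0.59 ± 0.17, adjusted p = 0.0558). It passed after quantile normalization (-0.71, adjusted p = 0.0281), with an intensity trend in the variance (adjusted p = 0.0492) and with those 6 arrays alone (adjusted p = 0.0151). At 48 h controls read 2754, 2669 and 2833 and EE arrays 2395, 2187 and 2092 (-0.31 ± 0.17, adjusted p = 0.654). The groups were apart at 48 and 72 h. At 24 h they overlapped, with controls at 3319, 2526 and 2925 and EE arrays at 3658, 2239 and 2073. At 4 h (-0.22 ± 0.17) and 8 h (-0.23 ± 0.17) they overlapped as well. The EE effect did not pass as different between times (F = 0.99, adjusted p = 0.782), nor did the control groups (adjusted p = 0.817).

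Cga, the alpha subunit gene (chr5:54283109-54295464 on GRCr8), did not pass in any comparison. At 72 h controls read 5589, 6204 and 5982 and EE arrays 5899, 5467 and 6198, when the receptor probe set stood at 31.7% of its control mean. At 48 h controls read 6128, 5738 and 6379 and EE arrays 5550, 5532 and 4799, the one time at which the groups did not overlap (-0.20 ± 0.11, limma adjusted p = 0.628). The 95% interval of the mean over times, -0.14 to 0.05, bounds the average change. All 30 values lay between 4576 and 7330, near the upper end of the deposited scale, whose highest value was 8825, and whether bright probe sets are compressed there was not tested. Tshb, the thyrotropin beta subunit gene whose cells share Cga, was at 0.01 ± 0.05 (adjusted p = 0.948) over the 5 times. Setting quantile normalization in place of the deposited scale moved Cga to 0.08 at 72 h, still not called.

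Gata2 (chr4:122211501-122225058 on GRCr8) moved in opposite directions at 8 and 24 h. At 8 h it read 167, 234 and 225 in controls and 131, 137 and 123 with EE and fell (-0.56 ± 0.11, limma adjusted p = 0.00721). At 24 h it read 147, 139 and 146 in controls and 261, 194 and 243 with EE and rose (0.58 ± 0.11, adjusted p = 0.0260). The groups did not overlap at either time. The 8 h call was lost with those 6 arrays alone in the fit (adjusted p = 0.161). The 24 h call was lost the same way (adjusted p = 0.236), with blanks set to the 10th percentile (adjusted p = 0.0906), and without control replicate 38, 40 or 42 or EE replicate 43 or 46 (0.51 to 0.60, adjusted p 0.0810 to 0.221).

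At 4, 48 and 72 h Gata2 did not pass. At 72 h controls read 155, 119 and 125 and EE arrays 167, 172 and 161, all above the controls (0.28 ± 0.11, limma adjusted p = 0.238). Over the 5 times the mean was 0.13 ± 0.05 (adjusted p = 0.113), a mean over effects of both signs. The EE effect on Gata2 differed between times (F = 14.1, adjusted p = 0.00220) and late from early (0.54 ± 0.10, adjusted p = 0.00400). Its control groups also varied over time (adjusted p = 0.0463). Their means were 164 ± 11.9, 209 ± 36.2, 144 ± 4.06, 171 ± 27.2 and 133 ± 19.2 (SD, n = 3) from 4 to 72 h, and the 8 h group was the highest. That control call was lost with an offset of 16 (adjusted p = 0.0529), with blanks set to the 10th percentile (adjusted p = 0.0702) and on leaving out any 1 of 20 arrays, and kept without control replicate 28, 61 or 64 or EE replicate 20, 21, 23, 33, 34, 43 or 44.

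**Figure D3:**
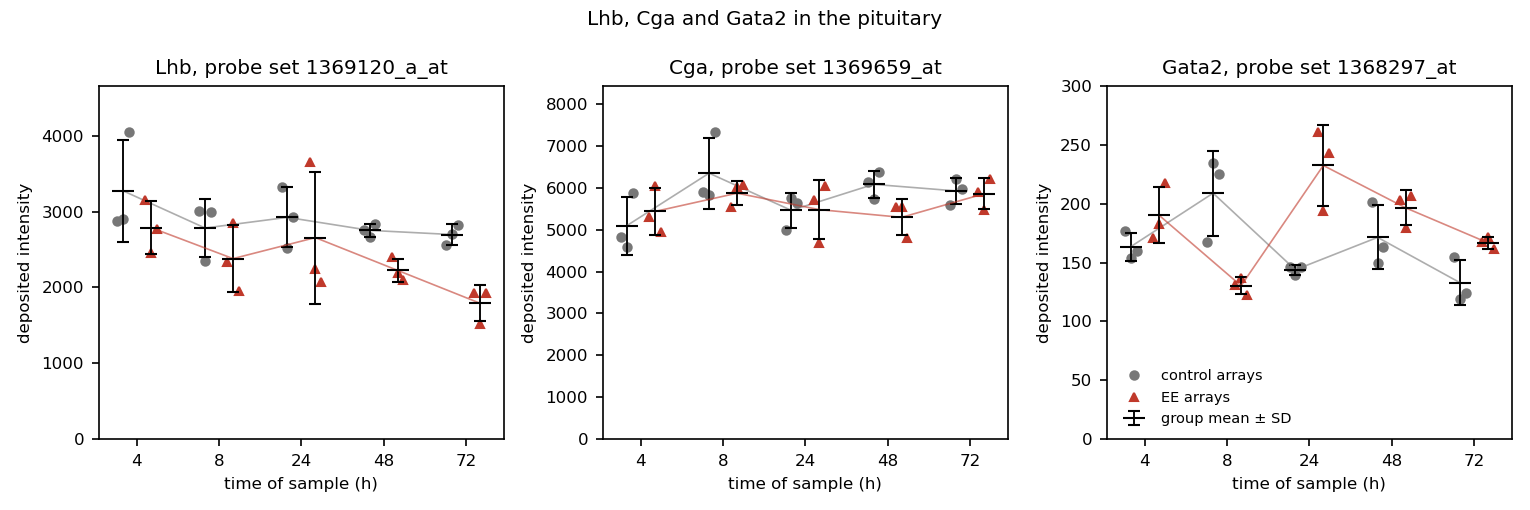
Deposited intensity (vertical axes, linear from 0) against time of sample in hours (horizontal axes, evenly spaced) for Lhb, Cga and Gata2 in the pituitary. Symbols mark single control (grey circles) and EE (red triangles) arrays, and black bars the mean ± SD of 3 arrays. Lhb separates at 48 and 72 h, Cga groups overlap at all times but 48 h, and Gata2 is lower with EE at 8 h (123 to 137) and higher at 24 h (194 to 261).

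At 8 h the values of the receptor and of Gata2 lay on the other side of 0 from their values at 24 h. The 8 h control group was at the end of the control range for both, lowest for Gnrhr and highest for Gata2. With the 6 arrays of 8 h fitted alone, 0 of 7 probe sets passed, and 12 probe sets passed in the whole table against 297 with all arrays. Blank cells at 8 h made up 38.8% to 41.5% of probe sets on EE arrays and 36.9% to 38.9% on controls. The part of this gap in the 8 h values was not tested.

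The uterus, which has no gonadotrophs, gave the background of these probe sets. There both Gnrhr probe sets, the second Fshb probe set and Cga were blank on all 70 arrays. Lhb had a value on 50 arrays, between 26.5 and 63.3, and the first Fshb probe set on 69, between 14.9 and 38.4. On pituitary arrays the lowest values of the same probe sets were 1520 and 282. Gata2 was the exception, with values of 201 to 662 on all 70 uterus arrays. Its pituitary range, 119 to 261, overlapped the low end of this.

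In the uterus Gata2 fell with EE over the mean of 7 times (-0.78 ± 0.04, n = 5 per group, limma adjusted p = 3.52e-27), in a comparison in which 79.8% of all probe sets tested passed. Controls at 72 h read 469 at the lowest, 528 at the median and 662 at the highest, and EE arrays 201, 225 and 254. At 2 h the control values were 358, 477 and 645 (lowest, median, highest) and the EE values 357, 399 and 420, which overlap. The difference was -0.27 ± 0.10 at 2 h, -0.64 ± 0.10 at 4 h, -0.70 ± 0.10 at 8 h, -0.64 ± 0.10 at 24 h, -0.93 ± 0.10 at 28 h, -1.10 ± 0.10 at 48 h and -1.15 ± 0.10 at 72 h. From 4 h on no EE array reached the lowest control of its time. At 24 h Gata2 was thus lower with EE in the uterus and higher in the pituitary. The difference between the tissues was not tested.

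**Figure D4:**
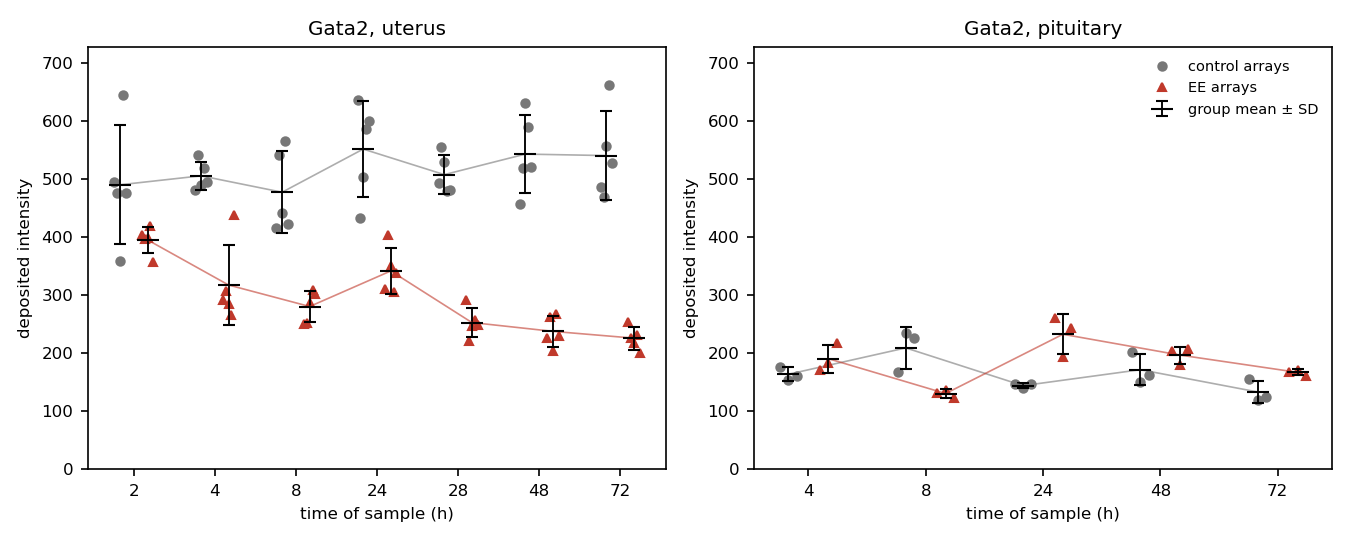
Deposited intensity of the Gata2 probe set (vertical axes, linear from 0, same scale) against time of sample in hours (horizontal axes, evenly spaced) in uterus (left, 5 arrays per group) and pituitary (right, 3 arrays per group). Grey circles are control arrays, red triangles EE arrays and black bars the mean ± SD. In uterus EE arrays lie below controls from 4 h on, while in pituitary they lie below at 8 h and above at 24 and 72 h.

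Deviations within groups gave no called correlation between the genes. For each of 10 pairs of the 5 genes, the deviations from the group means were compared over the 30 arrays, with arrays permuted within groups. The highest correlation was that of Gnrhr with Cga (r = 0.42, permutation p = 0.111; rho = 0.36, p = 0.141; r = 0.27 without the 2 farthest arrays). No pair passed after adjustment over the 10 (lowest adjusted p 0.809 for r and 0.501 for rho).

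Over all 30 arrays, groups included, each gene was ranked against 6610 named probe sets by Pearson's r on the log2 scale, as a description with shared time and treatment in every point. Most like Gnrhr were Hspa1a, a heat-shock chaperone gene (r = 0.81), Man2a1, a gene of glycan processing in the Golgi (0.79), and Syt4, a vesicle synaptotagmin gene (0.73). Most like Lhb were Chga (0.81), the chromogranin A gene of secretory granules, Ensa (0.78) and Slc27a1 (0.78). For Fshb they were Synm (0.72), Rgs4 (0.70) and Letm1 (0.67), and for Gata2 Cdh1 (0.78), Cnga1 (0.69) and Gnptg (0.62). Cga was closest to Gh1, the growth hormone gene of somatotrophs (0.93), then to COX2 (0.78) and Gnas (0.74).

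Of the genes through which the receptor signals, 27 of 35 listed could be tested over the 5 times, and 3 rose and 3 fell, with a median change of -0.01 (8.2% of all probe sets tested passed, with a median of -0.00). Prkcb, a protein kinase C gene, rose by 0.29 ± 0.04 (limma adjusted p = 3.68e-05) and Camk2g, a calmodulin-dependent kinase gene, by 0.27 ± 0.06 (adjusted p = 0.00424). Both rises were largest at 4 h, at 0.49 ± 0.09 and 0.85 ± 0.14. Rgs2, a regulator of G protein signalling that acts on Gq, fell (-0.48 ± 0.07, adjusted p = 6.46e-05), most at 72 h (-0.88 ± 0.16). Prkce rose, and Map2k1 and Rgs4 fell, by less than 0.3. The members that passed went both ways.

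Of the transcription factors of gonadotrophs, 17 of 26 listed were tested, and 2 rose and 2 fell (median 0.01), again against 8.2% of all probe sets tested. Smad3 (0.19 ± 0.05) and Smad4 (0.13 ± 0.04), which carry the activin signal to Fshb, rose, and Smad3 rose most at 4 h (0.70 ± 0.11). Nab2, a corepressor of Egr1, fell (-0.18 ± 0.06), as did Nr0b1 (-0.16 ± 0.05). Egr1, the factor that mediates the action of gonadotropin-releasing hormone on Lhb, varied widely and did not pass, at -1.32 ± 0.37 at 72 h (limma adjusted p = 0.0503) and 1.05 ± 0.37 at 48 h (adjusted p = 0.292). At 72 h Fos, an immediate-early gene that also answers to the releasing hormone, fell (-2.07 ± 0.38, adjusted p = 0.00270). Egr1 and Fos were chosen for naming after their values were seen. Nr5a1, the SF-1 gene, had a value on 1 of 30 pituitary arrays and could not be tested.

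Of the activin, inhibin and BMP genes that set Fshb, 14 of 19 were tested over the 5 times. Fst, the activin antagonist follistatin, rose (0.21 ± 0.06, limma adjusted p = 0.0210), 0 fell, and the median was -0.05. This 1 call of 14 is near the share of all probe sets tested that passed in either direction, 8.2%. Of the secretory granule genes 15 of 20 were tested, 0 rose and 4 fell, with a median of -0.10, where 8.2% of all probe sets tested passed in either direction. Chga fell by 0.45 on the log2 scale (adjusted p = 5.14e-04), Sytl4, a granule docking gene, by 0.38 (adjusted p = 4.67e-05) and Syt4 by 0.23 (adjusted p = 5.50e-04). Pam, an enzyme gene of peptide amidation, fell too. Scg2, a granin abundant in gonadotrophs, was at -0.06 ± 0.03 (adjusted p = 0.331). Of the steroid and peptide feedback receptors 5 of 15 were tested, and 1 rose and 1 fell, against the same 8.2%. Pgr, the progesterone receptor gene and a classical estrogen target, rose (0.38 ± 0.04, adjusted p = 9.85e-07) and Nr3c2, the mineralocorticoid receptor gene, fell (-0.26 ± 0.04, adjusted p = 2.33e-04). Esr1 could be tested at 48 h (-0.10 ± 0.10) and 72 h (0.05 ± 0.09) and passed at neither. Prl, the lactotroph hormone gene, was at 0.09 ± 0.07 (adjusted p = 0.479).

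Markers of pituitary cells were set beside these results at 72 h, as the sum of their intensities per array. The other gonadotroph markers (4 of 7 summed, with Foxl2 at no value on any array) gave 3885 to 4244 in controls and 3182 to 3674 with EE. Most of this sum is Scg2 and Chga (medians 2748 and 1609 over the 30 arrays), so it mainly follows these genes. The folliculostellate and neural lobe markers (4 of 8, Avp and Oxt at no value) gave 523 to 736 and 363 to 409, with Aldh1a1 at -0.76 ± 0.16. The corticotroph and melanotroph markers (3 of 6, Pomc with a value on 1 array) gave 356 to 400 and 265 to 298. The endothelial, blood and macrophage markers (6 of 12, Cdh5 and Tek at no value) gave 7187 to 7994 and 5629 to 6418. Most of that last sum is Hbb, a hemoglobin gene (median 4638 over the 30 arrays, change -0.31 ± 0.28 at 72 h, limma adjusted p = 0.723), and of the 7 genes of the list tested there 0 rose and 0 fell, with a median of -0.04. These 4 sums were lower with EE at 72 h without overlap. How often 3 EE and 3 control arrays lie apart over all probe sets was not counted. No share thus stands beside these sums or those of other times below, which are descriptions and not tests. At 72 h 1 of 4 other gonadotroph genes and 1 of 4 folliculostellate and neural lobe genes tested fell. Of 3 corticotroph and melanotroph genes tested 1 fell. In each of these lists 0 rose, and 2.74% of all probe sets tested passed in either direction. The lactotroph and somatotroph sum (5 of 6 genes) was higher, at 12940 to 13395 in controls and 13568 to 14522 with EE. Most of it is Gh1 and Prl (medians 6272 and 5462 over the 30 arrays). At 72 h they were at 0.02 ± 0.11 (limma adjusted p = 0.978) and 0.21 ± 0.15 (adjusted p = 0.607). Of the 6 genes of that list tested there 0 rose and 0 fell. The thyrotroph markers (3 of 5, Dio2 at no value) overlapped, at 3167 to 3728 and 3428 to 3781. Of the 3 genes of that list tested at 72 h 1 rose and 0 fell, against the same 2.74%, with a median of 0.01. The 1 that rose was Trhr, the receptor gene of thyrotropin-releasing hormone (0.96 ± 0.15). Some sums were apart at other times too. The sum of the other gonadotroph markers was lower with EE at 8 h (3803 to 4477 against 4796 to 5120), when both Gnrhr probe sets were higher with EE on every array, and at 48 h (3541 to 3903 against 4271 to 4626), but overlapped at 24 h. Of the 5 genes of that list tested at 8 h 0 rose and 0 fell, with a median change of 0.049. The sum covers 4 of these 5 genes and weighs them by intensity, so the median and the sum are unlike measures. At 48 h 0 of 4 rose and 0 fell, with a median of -0.07. The folliculostellate and neural lobe sum was lower with EE at 24 h (397 to 473 against 498 to 569) and 48 h (424 to 567 against 606 to 692), and the corticotroph and melanotroph sum at 48 h (274 to 317 against 319 to 345). The thyrotroph sum was higher with EE at 8 h (3588 to 4531 against 2945 to 3506). The part of these shifts in the values of Gnrhr, Fshb, Lhb and Gata2 at those times was not tested. Of 2 measures of RNA integrity at 72 h, the Actb 3'-to-5' log2 difference overlapped between EE and control arrays (1.35 to 1.56 and 1.42 to 1.60). The Gapdh 3'-to-5' log2 difference did not, at -0.301 to -0.244 with EE and -0.230 to -0.119 in controls. Its part in the 72 h values was not tested either.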

How the data were processed

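Total RNA from uterus and pituitary (RNeasy columns) was labelled with biotin from 5 µg and hybridised to Affymetrix RAE230A arrays, per the labels' protocols. The authors deposited 1 table of linear intensity values, 15923 probe sets by 100 arrays, in which 37.2% of cells are blank. The way values were summarised and scaled, and what a blank means, is not given in the sources used here. Gene names came from the platform annotation (12783 probe sets with 1 gene, 312 with several, 2771 with none, 57 array controls). Locations and upstream sequences came from RefSeq on GRCr8, where 4 of the 5 genes had an upstream sequence.

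Groups were taken from the sample titles. Values were analysed as log2(intensity + 30.4), 30.4 being the 10th percentile of all values. Blanks were left out. Testing a probe set required 2 of 3 values per pituitary group, or 3 of 5 per uterus group. A group-means model per tissue was fitted in R 4.3.3, variances were moderated with limma 3.58.1 (squeezeVar), and p-values, two-sided, were adjusted by Benjamini-Hochberg over all probe sets tested in a comparison. The code was tested on simulated data. Correlations were computed in Python 3.11.15 with SciPy 1.17.1, with permutation p-values from 100000 resamples. The genes and lists were chosen with earlier results of these data known.

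Named were all probe sets of the 5 genes, up to 3 genes per list with the smallest adjusted p over the 5 times, Prl, Pgr, Esr1, Gal and Tshb, and the 3 most similar genes per member. Gal could not be tested over the 5 times. Other names in the lists (Prkce, Map2k1, Rgs4, Nr0b1, Pam, Scg2, Egr1 and Fos) were added after values were seen. Alternatives were other offsets (16, 64), median centring, quantile normalization, complete groups only, blanks set to the 10th percentile, 1 probe set per gene, a variance trend, only the arrays compared, and each array left out.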

Additional observations from a re-analysis of the deposited data

Results flagged for a closer look

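The EE effect on the receptor gene differed between times in the pituitary. For Gnrhr the test between any of the 5 times gave F = 24.3 and 23.03 in the 2 probe sets, and late minus early gave -1.42 and -1.75. The effect at 8 h was above 0 and those from 24 h on were below 0.

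For Gata2 the test between times gave F = 14.1 and late minus early 0.54, with a fall at 8 h and a rise at 24 h.

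For Fshb late minus early gave -1.33 and -1.49 in the 2 probe sets, while the test between any times did not pass.

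In the uterus EE group of 4 h, 1 of 5 arrays read 438 for Gata2, far above the other 4 (266 to 306). It was the 1 group of 14 uterus groups of Gata2 in which 1 array stood out by Dixon's test at the 95% level, a level that marks about 1 group in 20 by chance.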

How the results depend on the processing

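No paired analysis was possible because EE and control groups share no replicate numbers. Over the 5 times Gnrhr, Fshb and Lhb kept their fall in all 188 refits of their probe sets (8 settings for each gene's brightest probe set and 7 for a second one, and each of 30 arrays left out), and Cga and Gata2 stayed uncalled. Single times were less firm. At 8 h, 1 of 7 probe sets passed with blanks set to the 10th percentile, 0 with the 6 arrays of that time alone and 1 to 3 with an array left out. At 24 h the count was 0 with blanks set and 0 to 1 with an array left out. At 48 h it was 4 with the 6 arrays alone. Late minus early it was 3 with blanks set and 3 to 5 with an array left out, and between times 3 to 5. The number of all probe sets called moved as well with an array left out, from 129 to between 73 and 135 at 4 h, from 204 to between 129 and 274 late minus early, from 90 to between 49 and 133 between times and from 144 to between 29 and 163 over the control groups, while over the 5 times it ran from 573 to 859 around 719.

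Uncalled values near 0 changed sign. After quantile normalization Cga was at -0.0055 at 4 h, 0.0061 at 24 h, 0.076 at 72 h and 0.025 late minus early, and after median centring at 0.013 at 24 h. With an array left out, the 4 h value ran from -0.41 to 0.15 and from -0.37 to 0.23 in the 2 Gnrhr probe sets, and from -0.63 to 0.47 and from -0.84 to 0.48 in those of Fshb. Cga then ran from -0.16 to 0.0020 at 8 h, -0.075 to 0.11 at 24 h and -0.059 to 0.031 at 72 h. The cause was not tested. Of 1649 refitted values of single probe sets, 1543 kept direction and side of the threshold, 80 lost a call, 10 gained one and 16 changed sign. All 7 probe sets had a value on all 30 pituitary arrays, so blanks entered their tests only through the moderated variance and the number of probe sets tested.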
